A study of Mus musculus with 12 samples.

Results

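The genes described here encode the subunits, activators and assembly factors of the proteasome. They were taken as every gene in the 6 stage tables whose symbol starts with Psm, followed by a letter from a to g and a digit. This gave 48 symbols, of which 47 were tested and passed an FPKM of at least 1 at all 6 stages, among 15892 genes tested at a stage or more. Psmb11, the subunit of the thymus proteasome, was listed at the proliferating stage and day 0 alone, without a test and at an FPKM of at most 0.0992. Of the 47 members, 5 are known to be induced by interferon (Psmb8, Psmb9, Psmb10, Psme1 and Psme2) and were compared with the other 42. Psmc3ip was taken in by its symbol but encodes a meiotic recombination factor and is no proteasome subunit.

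RNA was sequenced from mouse H2K myogenic progenitors, either wildtype or emerin-null, at 6 stages, which were proliferating cells and days 0, 1, 2, 3 and 4 of differentiation, with 1 sample per genotype and stage and 12 samples in all. In H2K progenitors an interferon-inducible promoter drives an immortalizing viral antigen, and both genotypes were given interferon-γ at 20 units/ml while proliferating and until day 0. From day 0 on the cells were kept in differentiation medium with horse serum and without interferon-γ, so that the stage of differentiation and the withdrawal of interferon-γ cannot be told apart here. Each genotype is a single cell line, and the plates behind a sample were deposited as 1 value, so a difference at 1 stage has no replicate error and the depth behind each value is unknown. The targeted gene Emd was measured at an FPKM of between 13.6 and 62.1 in wildtype samples. It was lower in the emerin-null sample at all 6 stages, listed at 0 at day 1 and highest, at 3.10, at day 2.

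The proteasome degrades ubiquitin-tagged proteins. Its core is a barrel of alpha and beta rings, and the catalytic sites lie in the beta subunits Psmb5, Psmb6 and Psmb7. A regulatory particle with a ring of ATPases unfolds substrates and feeds them into the core. Under interferon-γ, newly made cores take up Psmb8, Psmb9 and Psmb10 in place of Psmb5, Psmb6 and Psmb7, respectively, and this immunoproteasome favours peptides that class I molecules can present. Psme1 and Psme2 form an interferon-inducible activator that caps the core, and Psme3 and Psme4 encode related nuclear activators. In muscle the proteasome carries out much of the protein breakdown of atrophy and takes part in the remodelling that accompanies differentiation.

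To show promoter letters beside this grouping, which came from known biology and not from sequence, the windows that RefSeq gives for 40 of the 47 members (GRCm38.p6, 250 bases before to 50 bases after the start) were searched on both strands. The motifs were the gamma-activated site (TTCNNNGAA), the core of the interferon response element bound by interferon regulatory factors (GAAANNGAA), and the antioxidant response element (TGACNNNGC). The sites of the interferon-inducible Psmb8 and Psme1 and of their relatives Psmb5 and Psmb6 are printed with 10 flanking bases on each side, read along the strand of the gene, with the motif in capitals.
Psmb8: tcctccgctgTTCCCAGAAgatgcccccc
Psme1: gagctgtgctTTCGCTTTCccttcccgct
Psmb5: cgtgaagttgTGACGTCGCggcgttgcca
Psmb6: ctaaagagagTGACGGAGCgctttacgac
The gamma-activated site of Psmb8 lies at chr17:34198088-34198116 on the plus strand. Its motif is 97 to 89 bases before the RefSeq start that set its window, but inside the GENCODE gene. The Psme1 site, an interferon response core on the strand opposite to the gene, lies at chr14:55578494-55578522 on the plus strand, just after the RefSeq start that set its window and inside the GENCODE gene. The antioxidant elements lie at chr14:54618024-54618052 on the minus strand for Psmb5 and at chr11:70525338-70525366 on the plus strand for Psmb6. A gamma-activated site was found in 1 of 5 interferon-inducible members and 2 of 35 other members, against 8.29% of all 32817 promoters. The interferon response core was found in 1 of 5 and 6 of 35 members, against 8.55% of promoters, and the antioxidant element in 0 of 5 and 6 of 35, against 12.4%. A match describes letters in this window and was not tested as a binding site.

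The tables limit what can be said of single members, because all genes of an assembled locus share its entries. A locus was shared with another gene at 1 stage or more for 22 of the 47 members, and 8 shared at every stage. Psmb8 (GRCm38, chr17:34197721-34201454, plus strand) and Psmb9 (chr17:34181987-34187764, minus strand) flank Tap1, a peptide transporter of class I presentation, and these 3 genes had the same entry at every stage. Psmb8 and Psmb9 are therefore 1 measurement below. Psmb10 (chr8:105935735-105938444, minus strand) was joined with Ctrl, and at some stages Pskh1, Lcat or Slc12a4, except at day 3, where it stood alone. Psme1 (chr14:55578123-55581529, plus strand) was joined with Emc9 until day 2 and stood alone at days 3 and 4. Psme2 (chr14:55587441-55591113, minus strand) was joined with Rnf31, a ubiquitin ligase subunit, at every stage, and with Irf9, itself an interferon gene, at every stage but day 0. Psmb5 (chr14:54614119-54618022, minus strand) stood alone at its locus at every stage.

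Most values of the interferon-inducible members were lower in emerin-null cells, and the distance between the genotypes was larger at days 3 and 4 than while interferon-γ was present, except for Psme1 at day 4. This was so for the entries that hold the subunits of the immunoproteasome and the activator subunit Psme2, which other genes share except for Psmb10 at day 3. The joint entry of Psmb8, Psmb9 and Tap1 had an FPKM of 327, 417, 36.5, 18.6, 17.2 and 83.6 in wildtype cells, from proliferating to day 4. In emerin-null cells it was 274, 340, 28.0, 14.8, 11.8 and 52.8 at the same stages. The emerin-null value was the lower one at all 6 stages, 1.19-fold in proliferating cells and 1.58-fold at day 4. Of all genes in the limma fit described below, 14.7% were lower and 12.2% higher at all 6 stages. The locus had a second tested entry in proliferating cells and at days 1, 3 and 4, and with the entries summed the wildtype value was 1.54-fold higher at day 3 and 1.42-fold higher at day 4.

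Psmb10, the inducible counterpart of Psmb7, was at 24.9, 67.0, 11.9, 9.93, 104 and 90.7 FPKM in wildtype cells. It was at 24.9, 61.8, 8.65, 6.93, 45.3 and 58.7 in emerin-null cells. The 2 genotypes were level in proliferating cells and farthest apart at day 3, where wildtype was 2.30-fold higher and the entry held Psmb10 alone.

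Psme2, a subunit of the inducible activator, was at 18.4, 12.7, 35.2, 16.1, 27.8 and 31.0 FPKM in wildtype cells. It was at 17.2, 10.7, 25.2, 12.03, 14.4 and 18.7 in emerin-null cells. All 6 emerin-null values were lower, by 1.07-fold in proliferating cells, 1.92-fold at day 3 and 1.66-fold at day 4. With its entries summed these last values were 1.73-fold and 1.31-fold.

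Psme1, its partner subunit, was at 122, 199.6, 16.4, 9.06, 42.9 and 36.1 FPKM in wildtype cells and at 107, 207, 13.9, 7.97, 35.0 and 35.6 in emerin-null cells. It was the inducible member with the smallest difference, at a log2 ratio of emerin-null over wildtype between -0.29 at day 3 and 0.05 at day 0. At days 3 and 4, where it stood alone, the log2 ratio was -0.29 and -0.02. At day 2 its direction turned with the entries summed, from -0.18 to 0.26. Over all 38 tested entries that name an inducible member, the smaller ones included, 31 were lower in emerin-null cells and 7 were higher. The same loci recur over the stages in these entries, and only 3 of them named 1 inducible member alone. By gene, 7587 of 12571 genes were lower in emerin-null cells at day 1 and 5384 of 12485 at day 4. Among the 7 higher entries were smaller ones of Psme1 at day 2, at log2 ratios of 0.65 and 0.51, and of Psme2 and the Psmb8 locus at day 4, at 0.12 and 0.22.

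**Figure D1:**
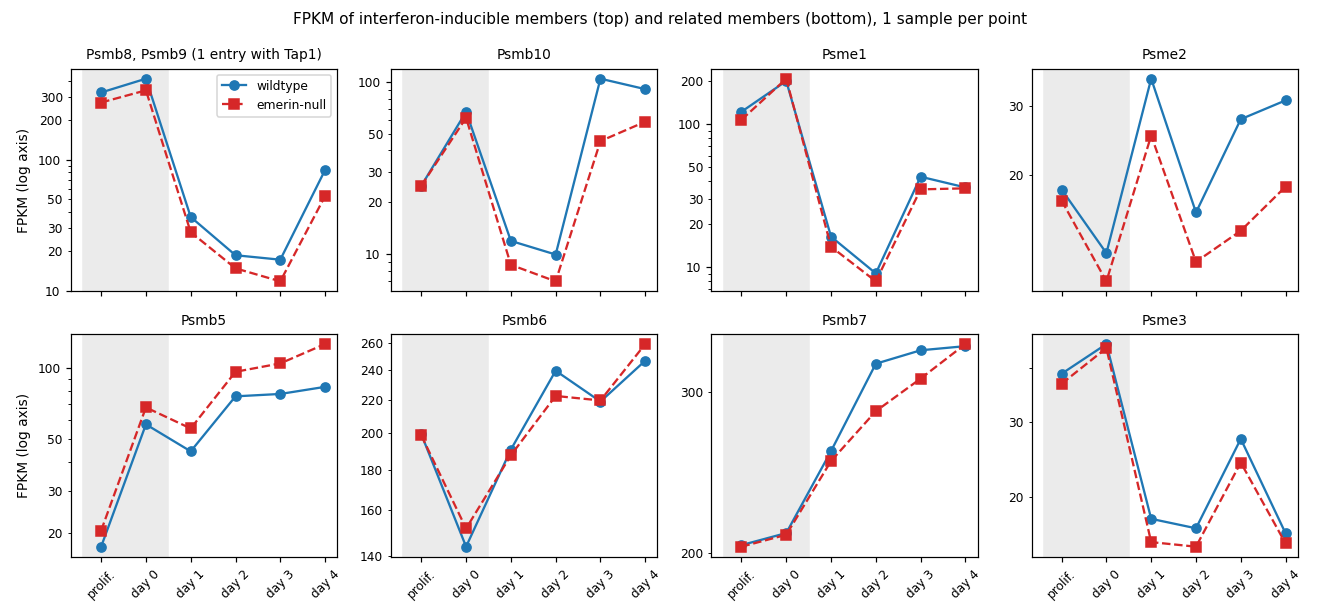
FPKM on a log axis at each of the 6 stages, with wildtype as blue circles and emerin-null as red squares and 1 sample per point. Grey marks the stages with interferon-γ. The curves of the inducible members (top) part after day 0 with emerin-null below wildtype, least so for Psme1, while among the relatives (bottom) Psmb5 is higher in emerin-null cells at all 6 stages.

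Psmb5, the constitutive catalytic subunit that Psmb8 replaces, differed in the opposite direction. It was at 17.4, 57.6, 44.2, 75.7, 77.5 and 83.1 FPKM in wildtype cells. It was at 20.4, 68.0, 55.3, 96.3, 104.5 and 126 in emerin-null cells. The emerin-null value was higher at all 6 stages, from 1.17-fold in proliferating cells to 1.52-fold at day 4. Among all genes in the limma fit, 12.2% were higher at all 6 stages. The ratio of the Psmb8 entry to Psmb5 was 18.8 in wildtype and 13.4 in emerin-null proliferating cells, 0.222 and 0.113 at day 3, and 1.01 and 0.418 at day 4. With the entries of the Psmb8 locus summed it was 0.442 and 0.213 at day 3 and 1.16 and 0.540 at day 4, again lower in emerin-null cells. The difference of their log2 ratios was between -0.48 in proliferating cells and -1.26 at day 4.

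The other constitutive catalytic subunits lay closer together. Psmb6 was between 144 and 247 FPKM in wildtype cells and between 152 and 259 in emerin-null cells, with a log2 ratio of between -0.11 and 0.08. Psmb7 was between 204 and 337 and between 203 and 339, with a log2 ratio of between -0.17 and 0.01, in entries shared with Nek6.

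At each stage the members past 1.5-fold were counted beside all genes, with no test since there is 1 sample per group. No member was past 1.5-fold higher or lower in emerin-null cells in proliferating cells (all genes 5.44% higher and 5.93% lower), at day 0 (4.72% and 7.41%), at day 1 (5.46% and 5.9%) or at day 2 (7.23% and 4.6%). At day 3, Psmb10 and Psme2 were past 1.5-fold lower, and no member was past it higher (all genes 5.14% lower and 8.7% higher). At day 4, 4 members were past 1.5-fold lower, which were Psmb8, Psmb9, Psmb10 and Psme2 and are 3 distinct entries, against 5.89% of all genes. With the entries of a gene summed, 4 members were past it at day 3, Psmb8 and Psmb9 added, and Psmb10 alone was past it at day 4. Psmb5 alone was past it higher at day 4, against 12.7% of all genes. It was just past that threshold, and with median-ratio or upper-quartile scaling of the samples no member was past it.

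The median log2 ratio of the 5 inducible members was -0.19, -0.24, -0.38, -0.33, -0.55 and -0.66 from proliferating to day 4. For the other 42 members it was -0.05, -0.05, -0.11, -0.14, -0.06 and 0.02, and for all genes -0.02, -0.03, -0.05, -0.01, -0.00 and 0.05. The inducible median was thus below that of the other members at every stage, by 0.14 in proliferating cells and by 0.68 at day 4. At day 3 none of the other members was below -0.32 or, Psmb5 apart, above 0.18. Leaving out members at shared loci leaves 2 inducible members at day 3 (Psmb10 and Psme1, median -0.75) and Psme1 alone at day 4 (-0.021), so that the size at day 4 rests on joined loci. Psmb8 and Psmb9 enter these medians with the same value, and counting their entry once gave -0.74 at day 3.

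**Figure D2:**
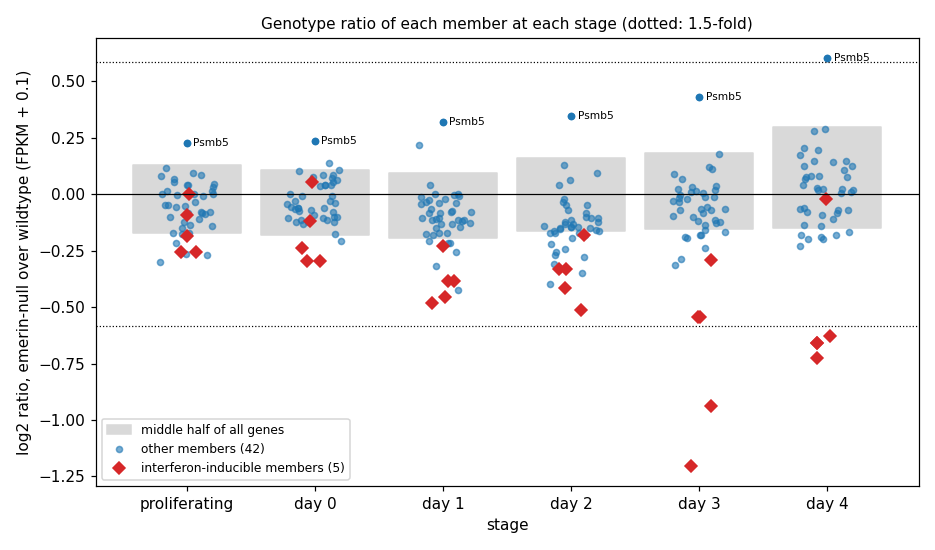
Log2 ratio of emerin-null over wildtype FPKM + 0.1 at each stage, with 1 point per member, interferon-inducible members as red diamonds and other members as blue circles. Grey boxes span the quartiles of all genes and dotted lines mark 1.5-fold. The red diamonds lie mostly below the blue circles, farthest at days 3 and 4, and Psmb5 lies above them at every stage.

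Whether a difference held over the stages was tested with limma on the 6 log2 ratios of each of 10080 genes. The error of this test is the spread over stages of 1 line per genotype, and not the spread between lines or cultures. Of the 47 members, 1 was called higher and 9 were called lower in emerin-null cells at a Benjamini-Hochberg adjusted p below 0.05. Of all genes, 8.64% were called higher and 11% lower, so that 21.3% of members and 19.6% of all genes were called in either direction. By direction, 19.1% of members were called lower and 2.13% higher. The mean ratio was below 0 for 40 of the 47 members, which is 85.1%, against 53.4% of all genes. With upper-quartile scaling it was below 0 for 37 of 47 members and 4854 of 10088 genes. All genes are not matched to the members by level. Among genes with an FPKM of at least 20, 2933 of 4548 were below 0 at day 1 and 1844 of 4260 at day 4. Of the 47 members 42 and 22 were. Of the 5 inducible members 3 were called lower, from 2 distinct entries, and of the other 42, 1 was called higher and 6 were called lower. At all 6 stages 3 inducible members were lower, and of the other 42, 10 were lower and 2 higher. Of all genes fitted, 14.7% were lower and 12.2% higher at all 6 stages.

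Psmb5 had a mean log2 ratio of 0.36 ± 0.06 (SE over 6 stages) and an adjusted p of 0.00637 by limma. The Psmb8 and Psmb9 entry was at -0.41 ± 0.06 with an adjusted p of 0.00570 by limma. Both were called in each of the alternatives in which they were fitted, including those that leave out a stage. Psme2 was at -0.48 ± 0.11 (adjusted p = 0.0262 by limma), and this call was lost without day 1, 2, 3 or 4 (adjusted p of between 0.0533 and 0.0685 by limma). Psmb10 at -0.49 ± 0.15 (adjusted p = 0.0628 by limma) and Psme1 at -0.14 ± 0.05 (adjusted p = 0.0999 by limma) did not pass.

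Whether the genotype ratio differed between the interferon-γ stages and days 1 to 4 was tested in the same way. No member passed an adjusted p below 0.05 by limma, against 0.427% of all genes, and 4 members (Psmb10, Psme2, Psme4 and Psmd1) had an unadjusted p below 0.05, against 13.1% of all genes. The ratio with interferon-γ minus that without was 0.64 ± 0.22 (SE) for Psmb10, 0.48 ± 0.16 for Psme2 and 0.21 ± 0.11 for the Psmb8 and Psmb9 entry, with adjusted p of 0.330, 0.331 and 0.444 by limma. The larger distance between genotypes at days 3 and 4 was not tested as such and is a description of these samples.

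The remaining calls were small and lay outside the core. Psmd10, known as gankyrin, an assembly chaperone of the ATPase ring, was at 19.3, 19.2, 29.2, 36.4, 41.3 and 31.9 FPKM in wildtype and at 16.1, 16.6, 23.4, 28.6, 33.2 and 29.1 in emerin-null cells. All 6 emerin-null values were lower, with a mean log2 ratio of -0.26 ± 0.04 (adjusted p = 0.00528 by limma), and the call held whichever stage was left out. Psmd10 stood alone at its locus. Psmd14, the deubiquitinase of the regulatory particle, was between 71.6 and 93.3 FPKM in wildtype and between 63.7 and 84.1 in emerin-null cells, and was lower at all 6 stages (mean log2 ratio -0.16 ± 0.03, adjusted p = 0.0161 by limma). That call was lost without day 1, 2 or 3.

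Among the 6 ATPases of the regulatory particle, which unfold the substrate, 3 were called lower and none higher, beside 11% and 8.64% of all genes. Psmc2 was at -0.18 ± 0.04, Psmc5 at -0.17 ± 0.04 and Psmc4 at -0.12 ± 0.03 on the log2 scale, with adjusted p of 0.0224, 0.0224 and 0.0436 by limma. All 6 ATPases had a mean log2 ratio below 0, also under both scalings, beside 53.4% of all genes without scaling. Their median was -0.12 against -0.01 for all genes. Psmc6 had the highest of them, at -0.02 ± 0.05, and Psmc3 the highest mean level, between 132 and 637 FPKM in wildtype cells, in entries shared with Slc39a13 at 4 stages. At day 4 all 6 were below 0 with a median log2 ratio of -0.18, while all 7 constitutive beta subunits were above 0 with a median of 0.15 (6 of 7 under either scaling). Of all genes, 7101 of 12485 were above 0 at day 4, with a median of 0.05, and 7587 of 12571 were below 0 at day 1. This contrast between the beta subunits and the ATPases was not tested. At day 3 the contrast was partly present. There 5 of 7 beta subunits were above 0, also under either scaling, with a median of 0.015, and 5 of 6 ATPases were below 0 with a median of -0.14. Without scaling it was not seen from proliferating cells to day 2, where 6, 5, 6 and 5 of 7 beta subunits were below 0 (4, 3, 3 and 5 under either scaling). Under either scaling 4 of 7 beta subunits were above 0 at days 0 and 1, while at least 4 of 6 ATPases were below 0. Its absence at these 2 stages thus depends on the scaling. Over the stages 5 of 7 beta subunits had a mean below 0. The 3 ATPase calls did not hold throughout: Psmc2 was lost without day 1, 2 or 3, Psmc5 without proliferating cells, day 2 or day 3, and Psmc4 when any stage other than day 4 was left out, without a trend in limma and under both scalings. Psmc2 shared its locus with Dnajc2 at 5 stages and Psmc5 with Ftsj3 at all 6.

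The alpha ring, which gates the core, had no call among 7 members, beside 19.6% of all genes called in either direction. Its mean log2 ratios were between -0.13 ± 0.04 for Psma2 (entries shared with Mrpl32 at 2 stages) and 0.10 ± 0.04 for Psma1. Psma1 was higher in emerin-null cells at all 6 stages, at 112 to 135 FPKM in wildtype and 117 to 139 in emerin-null cells, but did not pass (adjusted p = 0.1004 by limma). Psma7 had the highest mean level in this ring, between 103 and 283 FPKM in wildtype cells, in entries shared with Ss18l1 at 5 stages. Of the 11 non-ATPase subunits of the regulatory particle, Psmd14 alone was called, beside 19.6% of all genes. Psmd4, a ubiquitin receptor, had the highest mean log2 ratio of these (0.03 ± 0.04), and Psmd8 the highest mean level, between 124 and 311 FPKM in wildtype cells, in entries shared with Ggn at 2 stages.

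Of the 7 assembly chaperones, Psmd10 and Psmg4 were called lower and none higher, beside 11% and 8.64% of all genes. Psmg4 was at -0.21 ± 0.06 (adjusted p = 0.0462 by limma), in entries shared with Slc22a23 at 3 stages, and was lost when any stage other than day 4 was left out and without a trend in limma. Psmd5 had the highest mean log2 ratio (0.03 ± 0.04) and Psmd9 the highest mean level, between 29.9 and 36.2 FPKM in wildtype cells. Neither related activator passed, with Psme3, in entries shared with Aoc2 at 5 stages, at -0.12 ± 0.03 (adjusted p = 0.0572 by limma) and Psme4 at -0.04 ± 0.05 (adjusted p = 0.589 by limma). In all, 41 of the 42 other members had a mean log2 ratio within 0.3 of 0, against 81.7% of all genes, and Psmb5 was the exception.

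**Figure D3:**
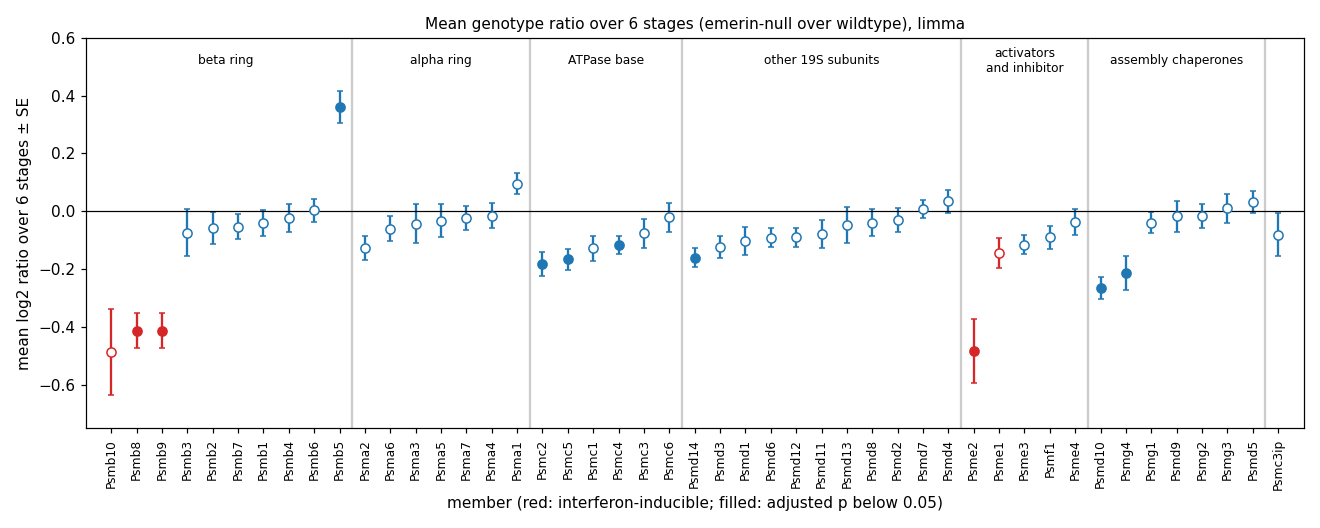
Mean log2 ratio of emerin-null over wildtype over the 6 stages for each of the 47 members, with bars of 1 SE over stages from limma. Red marks interferon-inducible members and filled points an adjusted p below 0.05. Psmb5 is the only filled point above 0, and 9 are below it.

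Most inducible members had larger changes than the median of the other members when interferon-γ was withdrawn, in both genotypes. These changes have no test, since each stage was assembled and normalized in a table of its own, and the 2 genotypes are given side by side. At day 1, the first stage without interferon-γ, the Psmb8 and Psmb9 entry was 11.4-fold lower than at day 0 in wildtype and 12.1-fold lower in emerin-null cells. The span and gene names of the locus were the same at both stages, but it had 1 tested entry at day 0 and 2 at day 1, and with these summed the values were 6.43-fold and 6.92-fold lower. Psme1 was 12.1-fold and 14.8-fold lower at day 1 and Psmb10 5.59-fold and 7.07-fold lower, while the entries of Psme2 were 2.77-fold and 2.34-fold higher. The spans of the Psmb10, Psme1 and Psme2 entries differed between these stages, and those of Psme2 held Irf9 at day 1 but not at day 0. With the entries summed Psme2 was 4.32-fold and 3.53-fold higher.

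Of the 5 inducible members, 4 were thus past 1.5-fold lower at day 1 and 1 past it higher in each genotype, or 3 and 1 of 4 distinct entries. Among all genes 27.3% were lower and 21.6% higher in wildtype cells, and 28.1% were lower and 22.7% higher in emerin-null cells. Of the other 42 members, 7 were lower and 9 higher in wildtype cells, and 8 were lower and 7 higher in emerin-null cells. Their median log2 change was 0.11 and 0.03. For the 27 other members whose entry kept at least 90% of its span and the same gene names, it was 0.01 and -0.03.

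Later steps differed between the inducible members. The Psmb8 and Psmb9 entry was lowest at day 3 and 4.83-fold higher at day 4 in wildtype and 4.46-fold in emerin-null cells. With its entries summed the locus was instead lowest at day 2, and the values at day 4 were 2.83-fold and 3.07-fold those at day 3, so that the order of the genotypes turned. Psmb10 was 10.4-fold higher at day 3 than day 2 in wildtype and 6.45-fold in emerin-null cells, where its entry changed from one joined with Ctrl to one of Psmb10 alone. Psme1 was 4.69-fold and 4.35-fold higher over the same step, where its entry also lost its neighbours, and 3.50-fold and 2.46-fold with its entries summed. The part of the changed entries in these steps was not tested.

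Members with a steady entry differed in how even their values were over the stages, which were normalized separately. The same span and gene names were kept at all 6 stages by 20 members. Their highest over lowest FPKM within a genotype was between 1.10 and 6.19, with a median of 1.73. No such range of all genes is set beside it. In wildtype and emerin-null cells it was 4.13 and 4.00 for Psmg1, 3.76 and 3.615 for Psmd3, and 3.11 and 2.96 for Psmd5. Psmd7, a structural subunit of the regulatory particle, was among the most even, between 115 and 129 FPKM in wildtype and between 117 and 129 in emerin-null cells. Psmb5 was the least even, with a 4.77-fold range in wildtype and a 6.19-fold range in emerin-null cells, lowest in proliferating cells and highest at day 4.

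**Figure D4:**
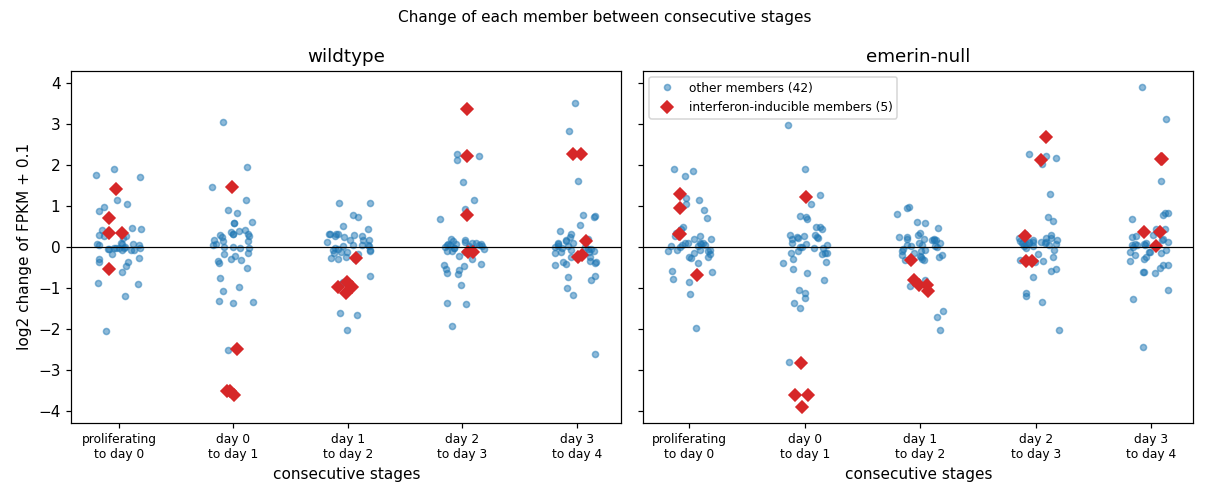
Log2 change of FPKM + 0.1 between consecutive stages for each member, in wildtype (left) and emerin-null cells (right), with interferon-inducible members as red diamonds and other members as blue circles. From day 0 to day 1, 4 of the 5 red diamonds lie below the centre of the blue circles, by more than 2 log2 units.

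Genes that act with the members were counted from lists of named genes. Of 17 interferon-γ and class I genes tested over the stages, 7 were called lower in emerin-null cells and none higher, beside 11% and 8.64% of all genes, with a median mean log2 ratio of -0.22 against -0.01 for all genes. Of these 7, Tap1 and Irf9 share loci with members, and the class I genes Tapbp and H2-K1, also at shared loci, were at -0.50 ± 0.06 and -0.48 ± 0.09. Tap2, the other transporter subunit, stood alone at its locus and was at -0.50 ± 0.04 (adjusted p = 6.86e-04 by limma). Irf1, an interferon-inducible transcription factor, was at -0.44 ± 0.11 (adjusted p = 0.0375 by limma). The receptor subunit Ifngr1 was at 0.03 ± 0.07 and the kinase Jak2 at 0.02 ± 0.05, and neither passed.

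Of 17 proteasome cofactors and regulators, 2 were called higher (Nfe2l2 and Ubqln2) and 3 lower (Pomp, Ddi2 and Nploc4), beside 8.64% and 11% of all genes. Pomp, the maturation factor of the core, was at -0.17 ± 0.04 (adjusted p = 0.0332 by limma), in entries shared with Slc46a3. Nfe2l1, which drives proteasome genes when the proteasome is inhibited, was at 0.02 ± 0.05 (adjusted p = 0.831 by limma), and Nfe2l2, the factor of the antioxidant element, at 0.34 ± 0.10 (adjusted p = 0.0486 by limma). Of 7 muscle ubiquitin ligases 1 was called lower, beside 11% of all genes, which was Mul1 at -0.25 ± 0.05 (adjusted p = 0.0160 by limma). Neither atrophy ligase passed, with Trim63 at 0.13 ± 0.07 and Fbxo32 at -0.06 ± 0.08.

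The muscle markers Myod1, Myog, Ckm and Tmem8c were present in every sample, with Myod1 at 56.7 FPKM or more in wildtype and 58.5 or more in emerin-null cells. Des was listed at 5 stages, Myh3 at 1 and the symbol Mymk at none. Some muscle markers moved with the genotype: of 6 tested, Pax7 (mean log2 ratio 2.34 ± 0.29) and Myf5 (1.19 ± 0.15) were called higher and Ckm (-0.52 ± 0.11) lower by limma. Among all genes 8.64% were called higher and 11% lower. Pax7 was low, between 0.186 and 2.84 FPKM in wildtype and between 2.41 and 6.84 in emerin-null cells. Where wildtype was below 1, Pax7 passed the filter through the emerin-null value alone, so its call and ratio carry little weight. Myf5 was between 2.21 and 5.10 in wildtype and between 5.99 and 12.6 in emerin-null cells. Of 9 leukocyte markers, 4 were not listed, Ptprc among them, 4 were at an FPKM of at most 0.347, and Cd68, a lysosomal protein, was between 12.5 and 106 in wildtype and between 19.4 and 118 in emerin-null cells. Cd68 was called higher (0.88 ± 0.19, adjusted p = 0.0213 by limma), in entries shared with the translation factor gene Eif4a1 at all 6 stages, so that its own level was not measured apart. The summed FPKM of the leukocyte markers was between 12.5 and 106 in wildtype and between 19.4 and 118 in emerin-null cells. Of 6 fibroblast markers, Lum was not listed and 4 were at or below 2.28 FPKM, while Col1a1 was between 7.61 and 45.3 in wildtype and between 4.97 and 57.0 in emerin-null cells. Its log2 ratio went from -2.17 at day 0 to 2.19 and 2.74 at days 3 and 4. Col1a1 was thus higher in emerin-null cells where the inducible members lay farthest apart. The fibroblast markers did not move together. At day 3 and at day 4, 2 of them passed the filter, 1 past 1.5-fold higher and 1 past it lower. The summed FPKM of the fibroblast markers, mostly that of Col1a1, was between 10.3 and 46.8 in wildtype and between 5.89 and 58.8 in emerin-null cells. At day 4 it was 10.3 and 54.2. Their part in the differences of the members was not tested, and fewer cells of a type and less RNA per cell cannot be told apart in bulk samples.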

How the data were processed

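RNA of 12 samples, 1 per genotype and stage, was compared. Per the labels and the methods, reads were checked with FastQC, aligned with TopHat (mm10) and passed to Cuffdiff, whose versions the sources used here do not give. The labels give 37 °C for proliferating cells and the methods a lower temperature, and temperature entered no computation. The authors deposited 1 table per stage with an FPKM for each genotype, with the plates of a sample pooled. The columns carry no unit, and FPKM was inferred from Cuffdiff's column layout. The tables also hold the authors' log2 fold, test statistic, p, q and call, and second sheets with called entries, and none of these was used. Counts and effective lengths are not in these tables, so depth is unknown and no count model was fitted.

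Per gene and stage the entry with status OK and the largest summed FPKM was kept. Between 35 and 48 entries per table whose symbols a spreadsheet had turned into dates were left out. Ratios are log2 of FPKM + 0.1, emerin-null over wildtype, so they understate changes of low genes. Genes below 1 FPKM in both genotypes were left out, and those past 1.5-fold were counted with no test. Mean ratios over 6 stages were tested with limma 3.58.1 (R 4.3.3; empirical Bayes with a trend) on 10080 genes with all 6 stages, with Benjamini-Hochberg adjustment. Checked on simulated data over 10080 genes, the test of the mean ratio recovered 70.5% of 200 genes shifted by 0.5 with 7 false calls, and the interferon-γ test 61.5% of 200 genes shifted by 1.0 with 5. Simulated ratios were independent between stages, whereas the real ones come from successive stages of 1 line per genotype. The false calls of the simulation therefore do not give those of the data. A locus counts as shared where it names another gene (predicted, read-through, microRNA and other small RNA names apart). Coordinates are of GENCODE M21 (GRCm38), whose gene overlapped the entry in all 282 member entries. Motif windows are from RefSeq.

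Named were the 5 inducible members, Psmb5 to Psmb7, Psme3 and Psme4, per role the members with the highest and lowest mean ratio and the highest FPKM, members past 1.5-fold at 3 or more stages, and members called by limma. Psmd7, among the most even members, was chosen after its values were seen. The members, lists and tests were chosen with earlier results of these data known. Alternatives were a pseudocount of 1, no filter or an FPKM of at least 5, summed entries, shared loci left out, 2 scalings, 2-fold, 2 other limma settings and leaving out each stage. Counting shared entries once, leaving out Psmc3ip, keeping the same span and leaving out stages in the interferon-γ test were added after seeing the data. Values of some genes of the lists are not reported here.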

Additional observations from a re-analysis of the deposited data

How the results depend on the processing

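Across the alternatives 745 values kept their direction and side or stayed within the spread, 19 moved, 27 calls of single members were lost and none reversed. With entries summed, the members past 1.5-fold lower were 4 at day 3 and 1 at day 4, and the inducible median change from day 1 to day 2 in wildtype cells was -1.30. With shared loci left out they were 1 at day 3 and 0 at day 4, the inducible median was -0.75 and -0.021, and 3 members were called lower by limma. At 2-fold, 1 was lower at day 3 and 0 at day 4, and 0 were higher at day 4. With median-ratio and upper-quartile scaling 0 members were higher at day 4, and the median of other members at day 1 was -0.039 and -0.047. Counting a shared entry once gave an inducible median of -0.74 at day 3. Leaving out each stage gave between 3 and 9 members called lower, with 4 without day 1, 3 without day 2 and 3 without day 3, and 1 called higher each time. Psmb5, Psmb8, Psmb9 and Psmd10 kept their call in every alternative that could fit them. The percent of all genes past 1.5-fold at day 4 was 18.6, and 14.7 with an FPKM of at least 5. No paired analysis was possible because the labels carry no replicate numbers and each group has 1 sample, apart from the pairing by stage that the ratios already hold. Values of 1 sample per genotype, joined loci and an unknown depth limit every difference at a single stage.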
